A study of Mus musculus with 10 samples.

Results

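The genes described here encode the enzymes and import proteins of fatty acid oxidation in mitochondria and peroxisomes, 32 listed genes of which 31 were measured, out of 22180 genes on the arrays. They were taken by name from the array's annotation, which pairs each of the 31 with 1 probe set of its own. Acsl1, an acyl-CoA synthetase, was not analysed here. By compartment, 24 measured genes are mitochondrial and 7 peroxisomal, although a few of the mitochondrial ones, such as Ech1, Eci2 and Mlycd, are known in peroxisomes as well. The study asked what life-long L-carnitine feeding does to skeletal muscle gene expression in old mice. The carnitine group was 5 male NMRI mice, an outbred stock, on a natural-ingredient diet with 1000 mg L-carnitine added per kg, and the control group was 5 male NMRI mice on that diet without the addition, which held less than 5 mg carnitine per kg. Feeding began soon after 3 weeks of age, and mice of the study were killed at 9, 15 or 18 months. The labels do not tie an array to an age, so age may differ among the arrays and was not used here. Because NMRI mice are not genetically identical, mice of 1 diet can differ in genotype. Mice were housed 5 to a cage, and which mice shared a cage is not stated, so cage and diet may coincide.

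Fatty acids enter beta-oxidation as coenzyme A thioesters. In the mitochondrion, long chains arrive through the carnitine shuttle, and each round of the cycle removes a two-carbon acetyl-CoA by dehydrogenation, hydration, a further dehydrogenation and thiolysis. Peroxisomes shorten very long and branched chains with a separate set of enzymes and pass the products on. In muscle, slow oxidative fibres are known to rely on this pathway more than fast glycolytic ones.

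Values are RMA log2 signals of gastrocnemius RNA, a calf muscle of mostly fast fibres, with 1 array per RNA sample, and differences are carnitine minus control on the log2 scale. The 7 defining genes of fast and general skeletal muscle, Myh4 and Ckm among them, had a mean signal of 13.31 to 13.36 in carnitine mice and 13.24 to 13.34 in control mice, near the top of the scale in every array. All 7 had a positive difference, and Mylpf (0.17) had an unadjusted p of 0.0318 and an adjusted p of 0.712 in limma. Control replicate 5 stood apart from the other 9 arrays, with an interquartile range of 2.20 against 2.39 to 2.59, and each member's difference is also given without it where that moves it by over 1.5 times. A lower value in these bulk samples may mean fewer cells of a type or less RNA per cell, which cannot be told apart.

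The start regions of the genes were described from their sequence alone, and no link to the array values was tested. RefSeq promoter windows of GRCm38.p6, which run from 250 bases before to 50 bases after an annotated start, were held for 26 of the 32 listed genes. Hadha and Hadhb, which encode the alpha and beta subunits of the mitochondrial trifunctional protein, start head to head on opposite strands with 272 bases between their starts, so that their windows share 228 bases. The Hadhb window follows, 5′ to 3′, with the shared bases in capitals.
Hadhb (chr5:30155003-30155302, plus strand): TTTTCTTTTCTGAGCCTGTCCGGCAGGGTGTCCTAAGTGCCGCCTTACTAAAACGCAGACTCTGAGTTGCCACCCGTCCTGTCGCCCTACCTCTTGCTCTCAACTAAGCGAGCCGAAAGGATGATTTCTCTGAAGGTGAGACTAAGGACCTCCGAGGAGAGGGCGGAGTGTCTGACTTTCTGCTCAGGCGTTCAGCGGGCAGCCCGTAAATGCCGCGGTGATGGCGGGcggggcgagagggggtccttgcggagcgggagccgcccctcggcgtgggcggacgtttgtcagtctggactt

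The sites of the nuclear receptors that regulate this pathway are built on the half-site AGGTCA. Of the 26 genes, 0 held the extended site of the estrogen-related receptors, TCAAGGTCA, on either strand, against 0.466% of the 27025 genes with a window. The direct repeat of AGGTCA with 1 base between, the site of the PPAR receptors (DR1), was also held by 0 of 26, against 0.0481% of all. AGGTCA itself, which is part of both longer sites, was held by Acadm, Acadvl, Echs1 and Scp2, or 15.4% of the 26 genes, against 18.1% of all. Only Acadm of the 26 had an A before it (AAGGTCA), as 5.38% of all genes did, at the far edge of its window, at -249 from the start. These 4 windows are given on the gene's own strand, 5′ to 3′, with the half-site or its reverse complement in capitals. Only exact letters were searched, and both longer sites are so rare among all genes that 0 of 26 says little about the members. A match is a description of the letters, and its absence covers these exact letters in this window alone.
Acadm (chr3:153944594-153944893, minus strand): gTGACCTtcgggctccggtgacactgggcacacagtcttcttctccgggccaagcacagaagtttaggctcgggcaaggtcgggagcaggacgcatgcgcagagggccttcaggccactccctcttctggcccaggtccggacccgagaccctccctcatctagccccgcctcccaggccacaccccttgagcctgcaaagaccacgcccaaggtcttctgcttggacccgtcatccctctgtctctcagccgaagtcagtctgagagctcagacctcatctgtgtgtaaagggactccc
Acadvl (chr11:70015379-70015678, minus strand): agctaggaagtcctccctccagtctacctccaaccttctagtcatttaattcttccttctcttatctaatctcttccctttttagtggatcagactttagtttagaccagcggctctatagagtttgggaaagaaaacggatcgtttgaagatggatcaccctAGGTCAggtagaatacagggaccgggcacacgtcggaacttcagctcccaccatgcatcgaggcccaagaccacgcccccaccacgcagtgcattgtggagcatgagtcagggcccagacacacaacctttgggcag
Echs1 (chr7:140116372-140116671, minus strand): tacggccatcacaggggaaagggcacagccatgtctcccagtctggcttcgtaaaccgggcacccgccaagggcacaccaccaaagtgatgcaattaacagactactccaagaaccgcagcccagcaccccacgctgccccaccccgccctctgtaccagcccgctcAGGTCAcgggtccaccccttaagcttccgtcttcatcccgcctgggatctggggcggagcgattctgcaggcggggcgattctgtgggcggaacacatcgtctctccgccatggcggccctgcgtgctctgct
Scp2 (chr4:108118498-108118797, minus strand): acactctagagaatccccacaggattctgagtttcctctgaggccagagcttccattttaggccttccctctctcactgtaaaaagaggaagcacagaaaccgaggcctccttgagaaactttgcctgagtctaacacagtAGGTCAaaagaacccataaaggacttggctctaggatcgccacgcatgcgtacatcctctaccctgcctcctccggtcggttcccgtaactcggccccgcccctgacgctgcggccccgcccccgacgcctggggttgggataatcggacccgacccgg

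Carnitine feeding was followed by no detectable change in any of the 31 genes. With limma and Benjamini-Hochberg adjustment over all genes, 0 of 31 passed an adjusted p of 0.05, as did 0% of the 22180 genes, and the members' adjusted p ran from 0.721 to 0.994. At an unadjusted p of 0.05 it was likewise 0 of 31 in either direction, against 3.14% of all genes higher and 3.83% lower in carnitine mice. No member separated the groups, whereas 0.505% of all genes had every carnitine mouse above every control mouse and 0.609% every carnitine mouse below. The differences ran from -0.23 in Acot2 to 0.20 in Acad9, and their median was 0.01, beside -0.01 over all genes. All 31 had a mean signal at or above the probe set median, and over all genes at that level the median difference was 0.044.

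The intervals limit how large a change these 10 arrays leave room for, on the RMA scale, which draws weak signals together. All 31 members had a 95% confidence interval of the limma difference inside a 1.5-fold change either way, as did 94.4% of all genes. That count was 27 after cyclic loess, against 95.6% of all genes. It was also 27 without carnitine replicate 3 (92.1% of all genes), without carnitine replicate 4 (91.4%) or without control replicate 3 (91.6%). Without carnitine replicate 1 (93.1%) or without control replicate 5 (95.7%) it was 28, and with any other single array left out 30 or 31. Inside the narrower bound of 1.25-fold lay 10 members, against 43.8% of all genes. They were Acadm, Hadh, Acat1, Etfa, Acad10 and Acad11 of the mitochondrial genes and Acox3, Ehhadh, Scp2 and Abcd3 of the peroxisomal ones.

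**Figure D1:**
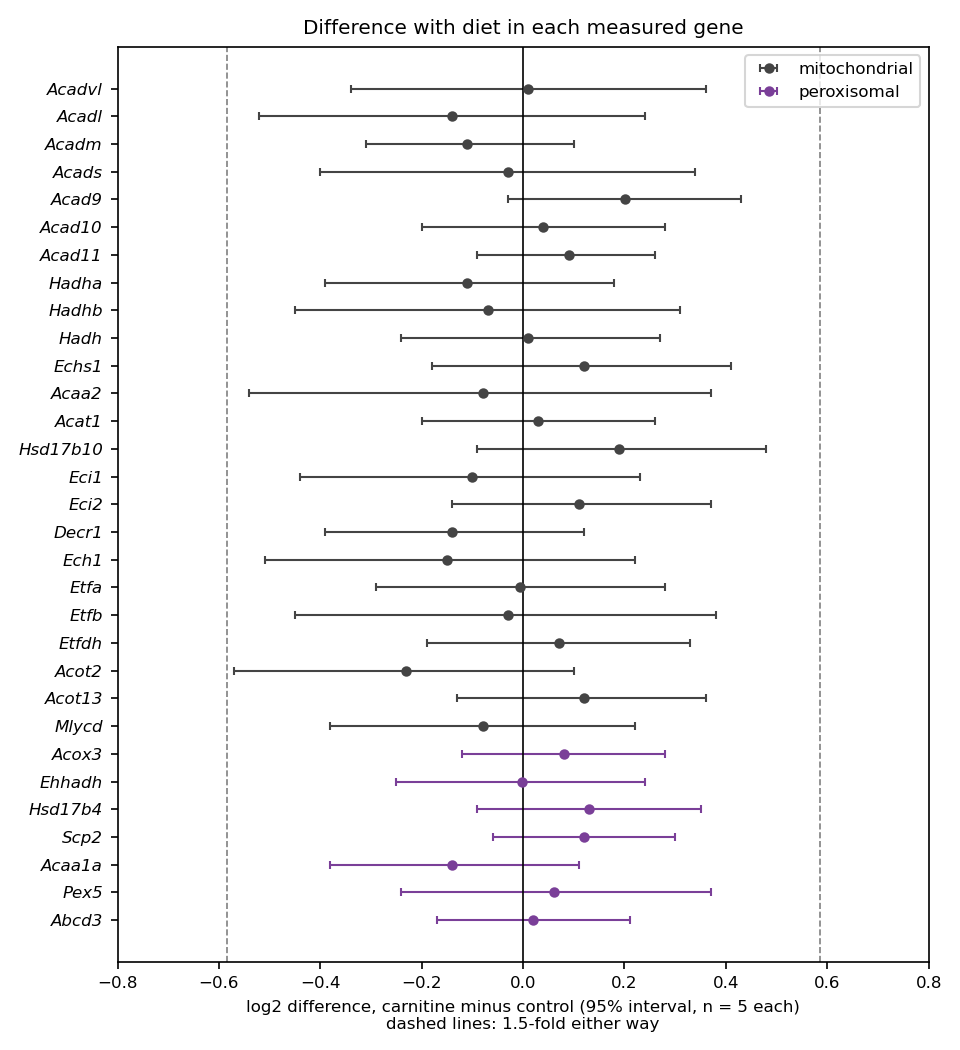
Difference of each of the 31 genes, carnitine minus control, on the log2 scale, with its 95% interval from limma (n = 5 mice per group). Every interval crosses 0 and lies inside the dashed lines at 1.5-fold, from Acot2 at -0.23 to Acad9 at 0.20.

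Among the 24 mitochondrial genes 11 had a positive and 13 a negative difference, with a median of -0.017. A positive difference was found in 47.7% of all genes. These counts shifted with the scaling of the arrays: 14 of 24 were positive after median centring, where 62.4% of all genes were, and 7 of 24 after cyclic loess, where 50.7% were. Without control replicate 5 the mitochondrial median was -0.095, and 8 of 24 were positive. Without carnitine replicate 5, the mouse with the lowest levels, the median was 0.067 and 17 of 24 were positive, and without control replicate 1, the mouse with the highest, it was 0.077 with 17 of 24.

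The acyl-CoA dehydrogenases open each round of the cycle and are divided by chain length. Acadvl, for very long chains, had signals of 10.19, 9.92, 10.22, 10.17 and 9.43 in carnitine replicates 1 to 5 and 10.38, 9.82, 9.82, 10.18 and 9.66 in control replicates 1 to 5. Its groups overlapped almost wholly, with 1 low carnitine mouse, and averaged 9.99 ± 0.33 in carnitine and 9.97 ± 0.30 in control mice (SD, n = 5 each). The difference was 0.01 (SE 0.163), and it was -0.090 after cyclic loess. Acadm, for medium chains, had signals of 12.33, 12.07, 12.30, 12.31 and 12.00 in carnitine and 12.46, 12.32, 12.09, 12.44 and 12.23 in control mice. Here 2 carnitine mice lay below every control mouse and the other 3 within the control range, a difference of -0.11 (SE 0.0947). Acadl, for long chains, and Acads, for short chains, differed by -0.14 and -0.03, and their signals spanned 0.97 and 1.06 over the 10 mice. Leaving out control replicate 5 gave -0.064 in Acadvl, -0.244 in Acadl and -0.111 in Acads.

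Acad9, which resembles the very long-chain enzyme and is best known as an assembly factor of respiratory complex I, had the largest positive difference of the 31 genes and the smallest unadjusted p. Its signals were 7.61, 7.77, 7.87, 7.92 and 7.68 in carnitine and 7.64, 7.73, 7.76, 7.47 and 7.25 in control mice, so that 3 of 5 carnitine mice lay above every control mouse. The means were 7.77 ± 0.13 in carnitine and 7.57 ± 0.21 in control mice (SD, n = 5 each), and the difference of 0.20 (95% interval -0.03 to 0.43) had an unadjusted p of 0.0876 and an adjusted p of 0.721 in limma. Leaving out control replicate 5, the lowest mouse, made the difference 0.120, and cyclic loess made it 0.130. Acad10 and Acad11, less-studied relatives, differed by 0.04 and 0.09.

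Etfa and Etfb encode the electron transfer flavoprotein, which takes the electrons of these dehydrogenases, and Etfdh passes them on to ubiquinone. Etfdh had signals of 10.75, 10.59, 10.95, 10.99 and 10.40 in carnitine and 10.83, 10.72, 10.37, 10.76 and 10.66 in control mice. Of the carnitine mice 2 lay above every control mouse and the other 3 within the control range, with a difference of 0.07 (SE 0.120) that turned to -0.031 after cyclic loess. Etfa differed by -0.006 and Etfb by -0.03, each with a sign that turned under another scaling. With control replicate 5 left out they differed by -0.079 and -0.195.

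The middle and last steps of the cycle are shared by the trifunctional protein at the inner membrane and by soluble enzymes. Hadha had signals of 11.57, 11.30, 11.68, 11.56 and 11.13 in carnitine and 11.82, 11.53, 11.24, 11.82 and 11.36 in control mice. The groups overlapped over most of their range, and the difference was -0.11 (SE 0.132). Its head-to-head partner Hadhb, given in full for that reason after its values were seen, had signals of 6.08, 5.76, 6.10, 6.03 and 5.35 in carnitine and 6.28, 6.03, 5.90, 6.12 and 5.33 in control mice, a difference of -0.07, or -0.219 with control replicate 5 left out. In both genes carnitine replicate 5 was the lowest carnitine mouse, and no mouse lay above control replicate 1. Hadhb averaged 5.90 over all arrays, a weak signal near 5.80, the median over probe sets.

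Hadh, the hydroxyacyl-CoA dehydrogenase of shorter chains, differed by 0.01, and Echs1, the short-chain enoyl-CoA hydratase, by 0.12. Acaa2, the medium-chain thiolase, differed by -0.08 and Acat1, the acetoacetyl-CoA thiolase that also serves ketone bodies and isoleucine, by 0.03. Without control replicate 5 the differences were -0.056 in Hadh, 0.033 in Echs1, -0.236 in Acaa2 and -0.017 in Acat1. Hsd17b10, a dehydrogenase of isoleucine breakdown and a subunit of mitochondrial RNase P, had signals of 7.37, 7.15, 7.25, 7.22 and 6.94 in carnitine and 7.32, 7.04, 7.00, 7.07 and 6.53 in control mice. A single carnitine mouse lay above every control mouse, and the low end was held by control replicate 5. The difference of 0.19 (95% interval -0.09 to 0.48, adjusted p in limma 0.730) shrank to 0.078 once that array was left out.

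A set of 4 auxiliary enzymes prepares unsaturated chains for the cycle, and 3 of them had a negative difference. The isomerase Ech1 differed by -0.15, the reductase Decr1 by -0.14 and the isomerase Eci1 by -0.10, while the isomerase Eci2 differed by 0.11. Decr1 was the tightest of them in carnitine mice, from 8.58 to 8.72, against 8.39 to 9.06 in control mice. Mlycd, which degrades malonyl-CoA, the inhibitor of the carnitine shuttle's entry enzyme, differed by -0.08. If control replicate 5 was left out, Eci1 differed by -0.172, Eci2 by 0.043 and Mlycd by -0.119.

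Thioesterases release free fatty acids from coenzyme A. The matrix enzyme Acot2 had the largest negative difference of the 31 genes, with signals of 10.19, 9.68, 9.99, 10.26 and 9.59 in carnitine and 10.13, 10.21, 9.80, 10.09 and 10.65 in control mice. The difference of -0.23 (95% interval -0.57 to 0.10, adjusted p in limma 0.730) shrank to -0.116 once control replicate 5, the highest mouse, was left out. Acot1, a close copy whose transcripts the Acot2 probes may share, differed by -0.15, so neither value is certain to belong to 1 gene. Acot13, a small thioesterase associated with mitochondria, differed by 0.12.

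**Figure D2:**
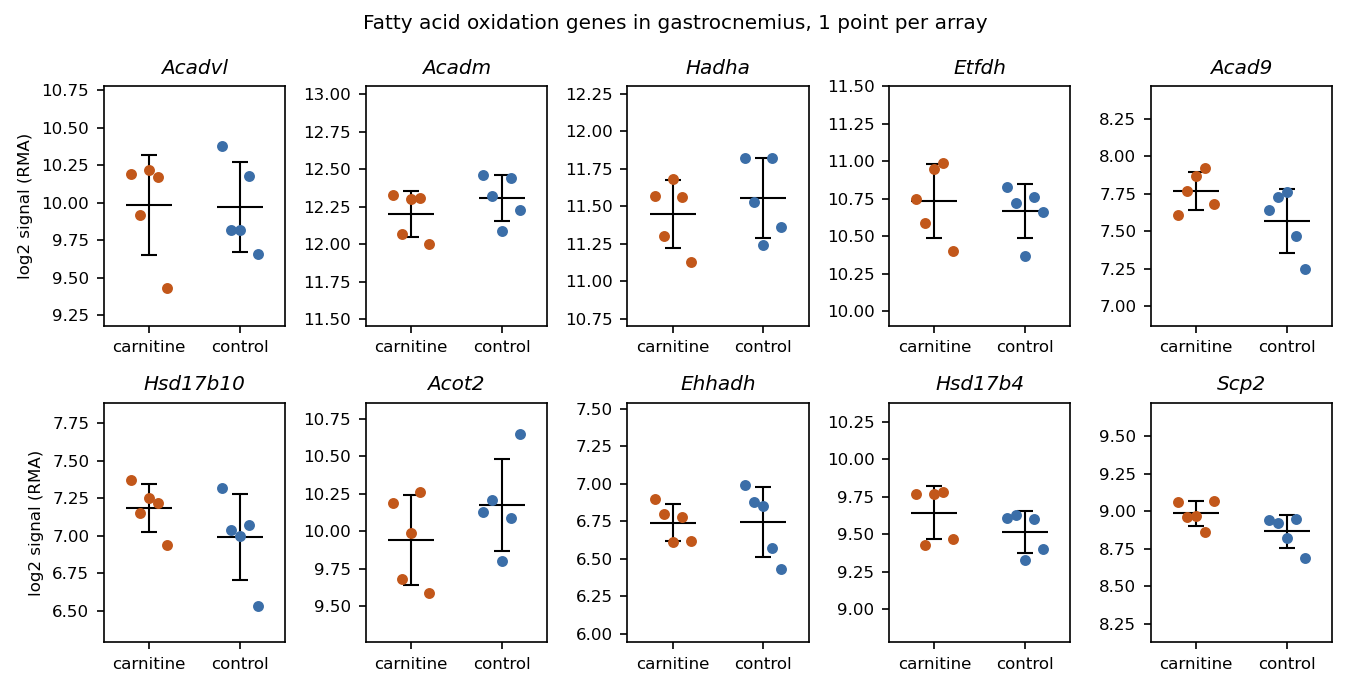
Log2 RMA signal of 10 of the genes in each of the 10 arrays, with carnitine mice on the left of each panel. Bars give the mean and the SD (n = 5 per group), each panel spans the same range of the log2 scale, and in every panel the groups overlap, as in Acad9 at 7.61 to 7.92 in carnitine and 7.25 to 7.76 in control mice.

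Of the 7 peroxisomal genes 5 had a positive difference and 2 a negative one, with a median of 0.062. That median was -0.019 without control replicate 5, the array with the lowest value in 5 of the 7 genes, and then 3 of 7 were positive. After median centring 6 of 7 were positive and after cyclic loess 4 of 7.

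Scp2, which encodes sterol carrier protein and a thiolase for branched chains, had signals of 9.06, 8.96, 8.97, 8.86 and 9.07 in carnitine and 8.94, 8.92, 8.82, 8.95 and 8.69 in control mice. In 4 of 5 carnitine mice the level was above every control mouse, in some by very little, and the fifth lay within the control range. The means were 8.98 ± 0.09 in carnitine and 8.86 ± 0.11 in control mice (SD, n = 5 each), a difference of 0.12 (SE 0.0826, adjusted p in limma 0.730). It was 0.076 if control replicate 5 was left out and 0.017 after cyclic loess. Hsd17b4, the D-bifunctional protein that carries out hydration and dehydrogenation of very long and branched chains, had signals of 9.77, 9.43, 9.77, 9.78 and 9.47 in carnitine and 9.61, 9.63, 9.33, 9.60 and 9.40 in control mice. Of the carnitine mice 3 lay above every control mouse and 2 inside the control range, for a difference of 0.13 (SE 0.101, adjusted p in limma 0.744), which was 0.024 after cyclic loess.

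Ehhadh, the L-bifunctional protein and a well-known PPAR-alpha target in liver, had signals of 6.90, 6.80, 6.61, 6.78 and 6.62 in carnitine and 6.99, 6.88, 6.85, 6.57 and 6.43 in control mice. All carnitine mice lay inside the control range, and the means were equal at 6.74. Acox3, an oxidase of branched chains, differed by 0.08 and the thiolase Acaa1a by -0.14. Acaa1a has a close copy in Acaa1b, which differed by -0.13, and the probes may share transcripts. The import proteins Pex5, the receptor for peroxisomal matrix enzymes, and Abcd3, the fatty acid transporter of the peroxisomal membrane, differed by 0.06 and 0.02. Without control replicate 5 the values were -0.081 in Ehhadh, 0.035 in Acox3, -0.075 in Pex5 and -0.019 in Abcd3.

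The mice of either diet differed from each other more than the diets did. For each gene the deviation from its own mean over the 10 arrays was taken, and these were averaged over the 24 mitochondrial genes. The average was 0.09, -0.12, 0.16, 0.16 and -0.31 in carnitine replicates 1 to 5 and 0.29, -0.02, -0.15, 0.15 and -0.23 in control replicates 1 to 5. Each diet thus held both high and low mice: carnitine replicate 5 and control replicate 1, the lowest and the highest, lay 0.60 apart, or 1.52-fold, while the group means were -0.01 ± 0.20 in carnitine and 0.01 ± 0.22 in control mice (SD, n = 5 each). Control replicate 1 was the highest mouse in 14 of the 24 genes. Carnitine replicate 5 was the lowest in 10 genes and control replicate 5 in 8.

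**Figure D3:**
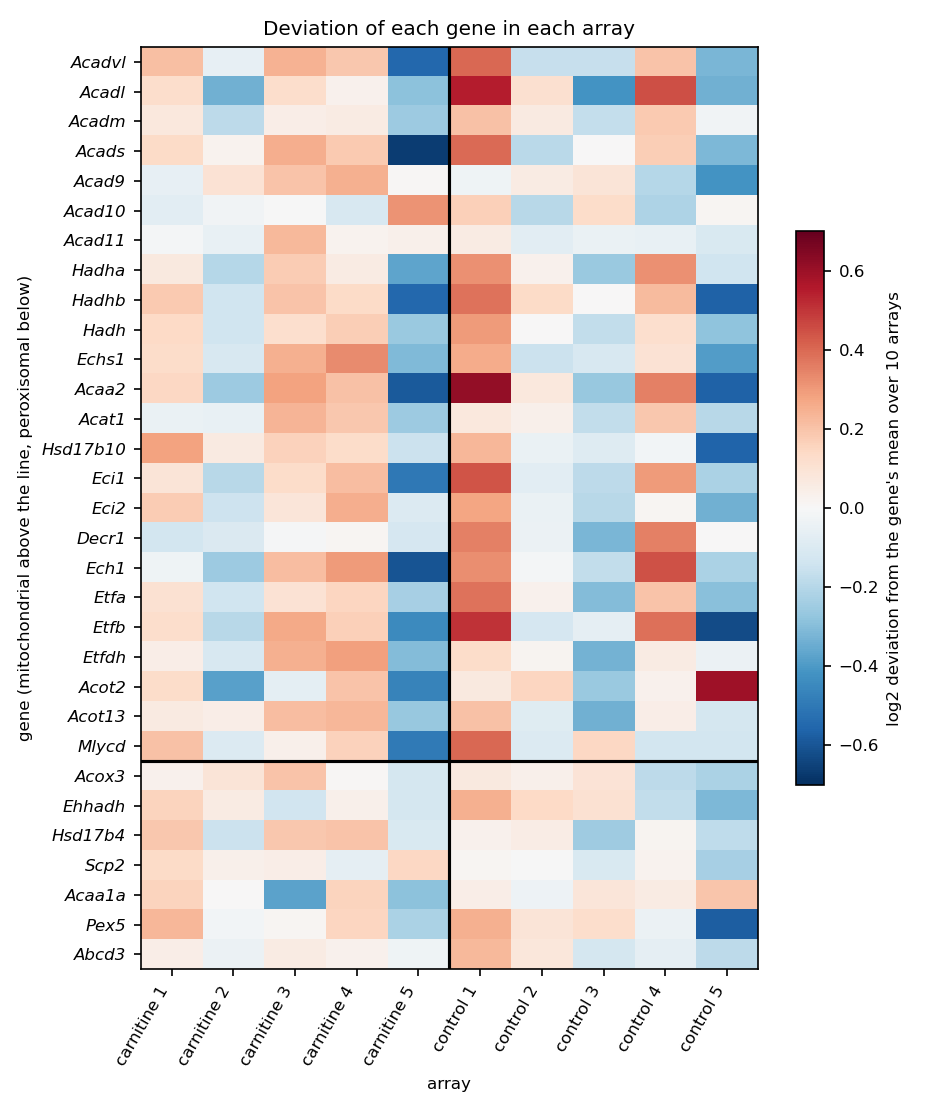
Deviation of each gene (rows) from its own mean over the 10 arrays (columns), in log2 units, red above and blue below, with carnitine arrays on the left and mitochondrial genes above the line. Whole columns share a colour in both diets: control 1 is mostly red (23 of 24 mitochondrial genes above their mean) and carnitine 5 and control 5 mostly blue (3 of 24 each).

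This shared movement was measured as the mean Pearson correlation over pairs of genes after each group's mean was removed, given as a description over 10 arrays that share their scaling. It was 0.60 among the mitochondrial genes, 0.33 among the peroxisomal ones and 0.38 between the compartments, beside 0.005 over all pairs of genes. Without control replicate 5 it was 0.62 among mitochondrial and 0.22 among peroxisomal genes. The value over all pairs of genes may be held low by the shared scaling, and pairs of genes of like signal were not measured. Acaa2, Hadh and Eci1 followed the other mitochondrial genes most closely, each with a mean correlation of 0.76, and Echs1 had 0.75. Of the peroxisomal genes Hsd17b4 had 0.66 with the mitochondrial ones and Abcd3 0.59, whereas Scp2 had 0.20 and Acaa1a 0.04.

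A few mitochondrial genes did not move with the rest. Acot2 had a mean correlation of 0.18 with the others, and control replicate 5, low in most genes, was its highest mouse at 10.65. Acad9 had 0.25. Acad10 ran the other way at -0.36: its highest mouse was carnitine replicate 5 at 6.98, the mouse that was lowest in Acadvl at 9.43 and in Acads at 7.68.

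The size of the swing differed between genes. Acaa2 spanned 1.20 on the log2 scale over the 10 mice (2.30-fold), Etfb 1.13 and Acads and Acot2 1.06 each. Acad11 spanned 0.33, Scp2 0.38 and Abcd3 0.41. The median SD within a diet was 0.245 for the mitochondrial and 0.159 for the peroxisomal genes, against 0.176 over all genes.

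Slow-fibre genes moved with part of this variation. All 8 slow-fibre markers (Myh7, Tnnc1, Tnni1, Tnnt1, Myl2, Myl3, Atp2a2 and Casq2) had a negative difference, from -0.65 in Casq2 to -1.64 in Myh7. In limma 6 of them had an unadjusted p below 0.05, against 3.83% of all genes lower in carnitine mice. The adjusted p was below 0.05 in 0 of them. Their mean signal was 8.32, 7.42, 9.39, 9.71 and 6.79 in carnitine replicates 1 to 5 and 9.90, 9.00, 9.45, 9.73 and 8.94 in control replicates 1 to 5. In the carnitine mice the replicates with the lowest marker level, 5 and 2, were also those with the lowest mitochondrial values. Among the control mice replicates 1 and 4 had the highest marker levels and the highest mitochondrial values, and replicate 5 had the lowest of both. Control replicate 3, with a marker level of 9.45, had a mitochondrial value of -0.15, close to that of carnitine replicate 2, whose marker level was 7.42. The part of fibre type in the oxidation genes was not tested.

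**Figure D4:**
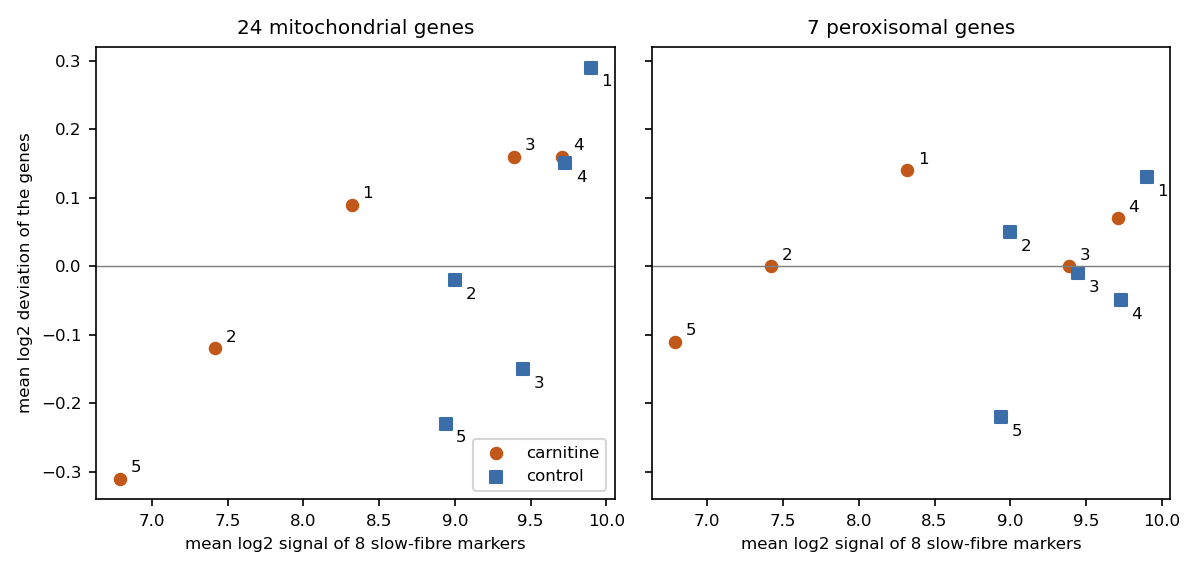
Mean deviation of the 24 mitochondrial genes (left) and the 7 peroxisomal genes (right) in each array, in log2 units, against the mean log2 signal of 8 slow-fibre markers, with replicate numbers beside the points. Carnitine replicates 5 and 2 lie lowest on the marker axis, at 6.79 and 7.42, and the control mice span 8.94 to 9.90.

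Other cell types varied among the mice too. The 6 measured adipocyte markers, from a list of 7, averaged 6.47 to 6.89 in carnitine and 6.46 to 7.14 in control mice, with Fabp4 highest at 10.71 in both groups. Plin1 averaged 6.30 in carnitine and 6.48 in control mice, Cidec 6.34 and 6.43, Retn 6.09 and 6.47, Lep 5.76 and 5.74, and Adipoq 5.08 and 5.41, so that Lep and Adipoq lay under the probe set median. The difference was positive in 2 and negative in 4 of the 6 adipocyte markers. In limma 1 of them, Retn (-0.38), had an unadjusted p below 0.05, against 3.83% of all genes lower in carnitine mice. Of the 4 brown adipocyte markers, Ucp1 averaged 5.28 in carnitine and 5.40 in control mice, Cidea 5.75 and 5.80 and Elovl3 4.66 and 4.67, whereas Ppargc1a, which muscle fibres also express, averaged 9.46 and 9.45. The 4 together ranged from 6.19 to 6.37 and from 6.25 to 6.42. The 6 macrophage markers ranged from 6.21 to 6.70 in carnitine and 6.29 to 6.82 in control mice, and 3 had a positive and 3 a negative difference. Only Cd163 (-0.24) of these 6 had an unadjusted p below 0.05 in limma, beside the same 3.83% of all genes. Endothelial markers, 5 of 5 measured, ranged from 8.40 to 8.93 in carnitine and 8.05 to 8.93 in control mice, and 5 of 5 fibroblast markers from 8.16 to 8.83 and from 7.74 to 8.63. All 5 fibroblast markers had a positive difference, from 0.09 to 0.37, and 0 had an unadjusted p below 0.05 in limma. Control replicate 5 held the lowest endothelial and the highest macrophage level. The part of these cells in the results was not tested.

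The rest of the pathway was read from lists of genes around the oxidation enzymes. Of 14 measured genes of uptake, activation and the carnitine shuttle (16 listed), 8 had a positive difference, 0 had an unadjusted p below 0.05, and the median was 0.03. The smallest p were those of Cpt1c, a brain form of the shuttle's entry enzyme (-0.14), and Acsl4, an acyl-CoA synthetase that prefers arachidonate (0.23). Of 13 other acyl-CoA enzymes, most of them mitochondrial (15 listed), 9 were positive, with the propionate pathway genes Pccb at 0.13 and Mcee at 0.25. Again 0 had an unadjusted p below 0.05 in limma.

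Among 22 other peroxisomal lipid enzymes and transporters (25 listed) 14 had a positive difference, with a median of 0.03. The smallest p were those of Slc27a2, a very long-chain acyl-CoA synthetase with a weak signal and a negative difference (-0.27), and Abcd2, a transporter of very long-chain acyl-CoA (0.22). Of 13 other peroxins, the proteins that build peroxisomes (16 listed), 9 were positive, with Pex19, which delivers membrane proteins, at 0.25 and Pex7, an import receptor, at 0.20. Neither list held a gene with an unadjusted p below 0.05.

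Among 16 transcriptional and other regulators of the pathway (17 listed) 11 had a positive difference. In limma 1 of the 16 had an unadjusted p below 0.05, against 3.14% of all genes higher and 3.83% lower in carnitine mice. That regulator was Rxrg, a retinoid X receptor, the partner type that PPAR receptors need to bind DNA. It had signals of 7.96, 8.13, 8.14, 8.08 and 7.94 in carnitine and 7.61, 7.90, 8.08, 7.63 and 7.49 in control mice. The control mouse at 8.08 lay among the carnitine mice, the difference was 0.31 (95% interval 0.07 to 0.55), and the adjusted p in limma was 0.712. The corepressor Nrip1, which represses oxidation genes in muscle, differed by 0.26. The 5 lists had median differences between 0.03 and 0.05, beside -0.01 over all genes and 0.044 over genes at or above the probe set median. Their counts of positive genes stand beside 47.7% of all genes. The lists were not counted again after median centring, where 62.4% of all genes were positive.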

How the data were processed

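Total RNA of 30 mg frozen gastrocnemius was hybridised to Affymetrix Mouse Gene 2.0 arrays, 5 per diet. The deposited log2 values were made by the authors with RMA in Affymetrix Expression Console, per the submitters' processing notes; no version or genome build is stated in these sources. RMA brings arrays to a shared distribution, so a shift of all transcripts in a sample is lost, and it shrinks differences of dim probe sets. Array medians ran from 5.72 to 5.96. Of 34390 probe sets, 23521 carry 1 gene symbol in the platform annotation and entered the tests, 1814 carry several, and 9055 are not listed there. For a gene with several, the one with the highest mean was kept.

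Carnitine and control were compared over all 22180 genes with limma 3.58.1 in R 4.3.3 (lmFit, eBayes with a mean-variance trend, two-sided), with Benjamini-Hochberg adjustment. No filter was applied. The fit was tested on simulated data. The p-values set the difference between the diets against the spread between mice, whose number limits the precision. The median SE over all genes was 0.110. The members and lists were chosen with earlier results of these data known. Signals per array are printed for the members with the smallest p and for Acadvl, Acadm, Hadha, Etfdh, Ehhadh and Hsd17b4 whatever their result, and up to 2 genes with the smallest p are named from each list; Hadhb, Acot1 and Acaa1b, the members named for their spread or their shared movement, and the markers named were added after their values were seen. Alternatives were a replicate block, removal of dim genes, fits without the variance trend or with array weights, median centring, cyclic loess, averaging over probe sets of a gene, and the omission of each array. Sequences are from RefSeq, build GRCm38.p6; the searches for AGGTCA and AAGGTCA were added after the windows were seen.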

Additional observations from a re-analysis of the deposited data

Results flagged for a closer look

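Within a group of 5, an array was singled out where its gap to the nearest of the others was a larger part of the group's range than Dixon's 95% critical value. Of 66 sets of 5 values checked, 2 met this, where chance gives about 1 in 20, or 3.30. Both were carnitine replicate 5. In Acads it had 7.68, against 8.37 to 8.60 in the other carnitine mice. In Acad10 it had 6.98, against 6.55 to 6.66, so that the same mouse was far below the others in one dehydrogenase gene and far above them in another.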

How the results depend on the processing

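Under 17 alternatives no member passed an adjusted p of 0.05, the lowest being 0.444, and 16 of the 31 differences kept their sign throughout. With array weights the difference was -0.030 in Acadvl, -0.043 in Hadh, -0.036 in Pex5 and -0.016 in Abcd3, each positive without weights. Median centring gave 0.022 in Acads, 0.044 in Etfa, 0.016 in Etfb and 0.048 in Ehhadh, each negative before it, and cyclic loess gave -0.090 in Acadvl, -0.082 in Hadh, -0.066 in Acat1, -0.031 in Etfdh and -0.080 in Abcd3. With each array left out in turn, the difference crossed 0 in 15 genes: -0.064 to 0.153 in Acadvl, -0.056 to 0.089 in Hadh, -0.082 to 0.088 in Etfa, -0.195 to 0.088 in Etfb, -0.028 to 0.095 in Acat1, -0.081 to 0.060 in Ehhadh, -0.111 to 0.135 in Acads, -0.219 to 0.060 in Hadhb, -0.236 to 0.059 in Acaa2, -0.172 to 0.009 in Eci1, -0.034 to 0.086 in Acad10, -0.138 to 0.037 in Mlycd, -0.007 to 0.152 in Etfdh, -0.019 to 0.084 in Abcd3 and -0.075 to 0.133 in Pex5. The cause of these turns was not tested. Members with an unadjusted p below 0.05 numbered 0 to 2 when arrays were left out: Hsd17b10 (0.276) without control replicate 1, and Decr1 (-0.235) and Acad9 (0.248) without control replicate 3. Over all genes 0 to 1 passed the adjusted p, the 1 gene without control replicate 2, and 1115 to 2560 had an unadjusted p below 0.05, the highest count without that array, against 1546. Of these 1546 genes, 696 were higher and 850 lower, after median centring 887 and 533, and among genes at or above the median probe set level, of which fewer were tested, 599 and 245 of 844. The median difference of all genes stayed between -0.015 and 0.042. Over the genes at or above the median probe set level alone it was 0.044. Replicate numbers occur in both diets but are not said to mark pairs. Deviations of same-numbered arrays correlated at 0.24, 0.01, -0.13, 0.23 and 0.10, and 2 of 10 arrays correlated best with their own number. With the replicate block 1802 genes had an unadjusted p below 0.05, 0 passed the adjusted p, and no member's call changed.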
